A study of Mus musculus with 12 samples.

Results

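The naive pluripotency transcription factors considered here are Esrrb, Klf2, Klf4, Klf5, Nanog, Tfcp2l1, Prdm14, Nr0b1, Nr5a2 and Zfp42, a list of 10 genes given by name, among the 35580 genes whose transcripts were summed. All 10 passed the filter on low counts, which kept 17424 genes for testing. Their transcripts were measured by mRNA sequencing in WT mouse ESCs of the parental R1 line and in Cidea KO cells, which derive from R1 and had the whole Cidea locus removed with CRISPR-Cas9. Each genotype was sampled as ESCs kept with LIF in 10% FBS (0 h), and as 3D spheroids grown from them for 24 h and 48 h in 15% FBS without LIF, with growth factor-reduced Matrigel as the matrix. Every one of the 6 groups held 2 libraries, 12 in all. The KO cells are 1 clone (19.7), so the loss of Cidea and any other property of that clone cannot be told apart, and the step from 0 h to 24 h joins elapsed time with the loss of LIF, the change of serum and the addition of Matrigel.

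In the pre-implantation epiblast and in ESCs kept with LIF, these factors bind one another's enhancers together with Oct4 and Sox2 and form a network that tolerates the loss of single members. LIF acts through STAT3, which switches on Klf4 and Tfcp2l1. Esrrb and Tfcp2l1 are repressed by Tcf7l1 until Wnt signalling lifts that repression. Klf2, Klf4 and Klf5 are Kruppel-like zinc-finger factors. Esrrb and Nr5a2 are orphan nuclear receptors, and Nr0b1 (Dax1) is a nuclear receptor relative that lacks the usual DNA-binding domain and acts as a co-repressor. Nanog is a homeodomain protein, Tfcp2l1 belongs to the CP2 and grainyhead-like family, Prdm14 restrains FGF signalling and DNA methylation, and Zfp42 (Rex1), a zinc-finger relative of Yy1, is widely used as a reporter of the naive state. When cells leave this state the network is dismantled, and the members studied here can be ordered by how early and how far their transcripts fall.

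Promoter sequences of 8 of the 10 genes were found in RefSeq (GRCm38.p6), as 11 windows of the 250 bases before an annotated start. The sequences of Klf4, Klf2, Zfp42 and Nanog are shown as examples. Both Nr5a2 windows are shown because each precedes the start of one of its leading transcripts. Capitals mark the letters CACCC or GGGCGG on either strand, the boxes read by Klf and Sp factors.
Klf4, chr4:55532476-55532725, minus strand: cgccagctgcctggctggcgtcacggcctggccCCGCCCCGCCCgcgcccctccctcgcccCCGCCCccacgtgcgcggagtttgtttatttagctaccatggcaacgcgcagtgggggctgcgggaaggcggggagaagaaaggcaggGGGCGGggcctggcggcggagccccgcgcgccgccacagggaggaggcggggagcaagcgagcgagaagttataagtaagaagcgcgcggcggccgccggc
Klf2, chr8:72318812-72319061, plus strand: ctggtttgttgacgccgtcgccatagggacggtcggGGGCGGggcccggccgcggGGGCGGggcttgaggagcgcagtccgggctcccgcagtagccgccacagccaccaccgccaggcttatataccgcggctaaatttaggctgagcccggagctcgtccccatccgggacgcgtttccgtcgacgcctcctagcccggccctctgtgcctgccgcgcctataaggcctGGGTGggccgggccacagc
Zfp42, chr8:43307010-43307259, minus strand: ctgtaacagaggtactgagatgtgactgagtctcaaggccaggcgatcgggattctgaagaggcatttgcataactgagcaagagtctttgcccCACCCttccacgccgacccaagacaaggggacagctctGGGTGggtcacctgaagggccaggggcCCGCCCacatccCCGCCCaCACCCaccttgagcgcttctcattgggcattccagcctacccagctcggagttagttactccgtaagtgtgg
Nanog, chr6:122707315-122707564, plus strand: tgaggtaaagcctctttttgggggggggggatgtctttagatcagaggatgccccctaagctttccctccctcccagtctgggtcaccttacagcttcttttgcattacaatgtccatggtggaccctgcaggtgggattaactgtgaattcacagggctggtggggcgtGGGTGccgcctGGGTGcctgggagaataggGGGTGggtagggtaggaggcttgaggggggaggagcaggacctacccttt
Nr5a2, before the start of Nr5a2-201, chr1:136960449-136960698, minus strand: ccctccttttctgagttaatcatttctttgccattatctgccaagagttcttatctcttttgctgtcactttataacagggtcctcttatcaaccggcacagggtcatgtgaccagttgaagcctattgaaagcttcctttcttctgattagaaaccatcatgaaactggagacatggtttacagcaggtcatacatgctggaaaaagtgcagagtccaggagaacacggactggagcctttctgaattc
Nr5a2, before the start of Nr5a2-205, chr1:136953631-136953880, minus strand: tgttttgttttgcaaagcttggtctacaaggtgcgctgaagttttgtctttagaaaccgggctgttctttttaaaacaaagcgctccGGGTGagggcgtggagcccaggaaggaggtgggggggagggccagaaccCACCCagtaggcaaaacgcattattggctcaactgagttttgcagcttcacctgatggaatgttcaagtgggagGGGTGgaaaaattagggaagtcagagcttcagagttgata
The Klf4 window held 4 matches to GGGCGG, some of them overlapping, and none to CACCC. Klf2 had 2 matches to GGGCGG and 1 to CACCC, Zfp42 had 2 and 3, and this Nanog window had 3 matches to CACCC and none to GGGCGG. The Klf2 window ends at position 72319061, past the GENCODE start of Klf2 at 72319033. Its CACCC match lies downstream of that start, within the annotated transcript. Of all 32851 windows of this length, 32.7% held GGGCGG and 52.0% held CACCC, so either match is common. The genes without a printed promoter lie at chr14:99298691-99315036 (Klf5, plus strand), chr1:13113457-13127163 (Prdm14, minus), chrX:86191764-86195947 (Nr0b1, plus) and chr1:118627945-118685168 (Tfcp2l1, plus), and Esrrb spans chr12:86361117-86521628 on the plus strand. The nuclear receptor half-site AAGGTCA was in 4.08% of all windows and in none of the members' windows, and the STAT site, TTC and GAA with any bases 3 apart, was in 7.02% of all windows and, among the members, in 1 window of Esrrb.

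Depth lay between 29.0 and 38.5 M estimated counts per library, and a member had between 196 (Prdm14) and 32620 (Esrrb) estimated counts in a library. Cidea was at 0 counts in all 6 KO libraries and between 0.836 and 5.06 TPM in the WT libraries. The ESC markers Pou5f1, Sox2, Sall4, Utf1, Fgf4 and Tdgf1 were all at 1 TPM or more in every group, with a summed level of 2452 to 3142 TPM per library. Markers of primitive endoderm, primitive streak, neural cells, trophectoderm, fibroblasts and two-cell-like cells summed to at most 27.3 TPM per list. One library stood apart: at an equal number of counts, the KO 24 h replicate 1 held 15474 detected genes, against 17641 to 19662 in the other 11, and Prdm14, Klf5 and Tfcp2l1 were low in it. Without this library 9 of the 10 genes were called lower at 24 h than at 0 h in the KO, 9 from 24 h to 48 h and 10 from 0 h to 48 h, and values without it are given where the KO 24 h group is described.

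In WT ESCs the 10 genes spanned a wide range of levels. Levels are in TPM, which is scaled for transcript length and can be compared between genes. Zfp42 was highest at 527 ± 3.86 TPM (SD, n = 2), followed by Klf2 at 445 ± 58.2, Esrrb at 388 ± 2.72, Nanog at 285 ± 9.46 and Klf4 at 179 ± 4.63. Nr0b1 stood at 122 ± 12.5 TPM and Klf5 at 103 ± 13, a pair that differed by little more than the spread of their libraries. Tfcp2l1 (66.9 ± 5.67 TPM), Nr5a2 (44.4 ± 1.09) and Prdm14 (15.7 ± 1.11) were lowest. By 48 h the order had changed in the middle: Klf4, at rank 5 in ESCs, was at rank 8 in WT and KO spheroids alike, close to Nr5a2, while Zfp42 and Klf2 held ranks 1 and 2. At 48 h the libraries of Zfp42 and Klf2 in WT overlapped, as did those of Esrrb and Nanog.

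**Figure D1:**
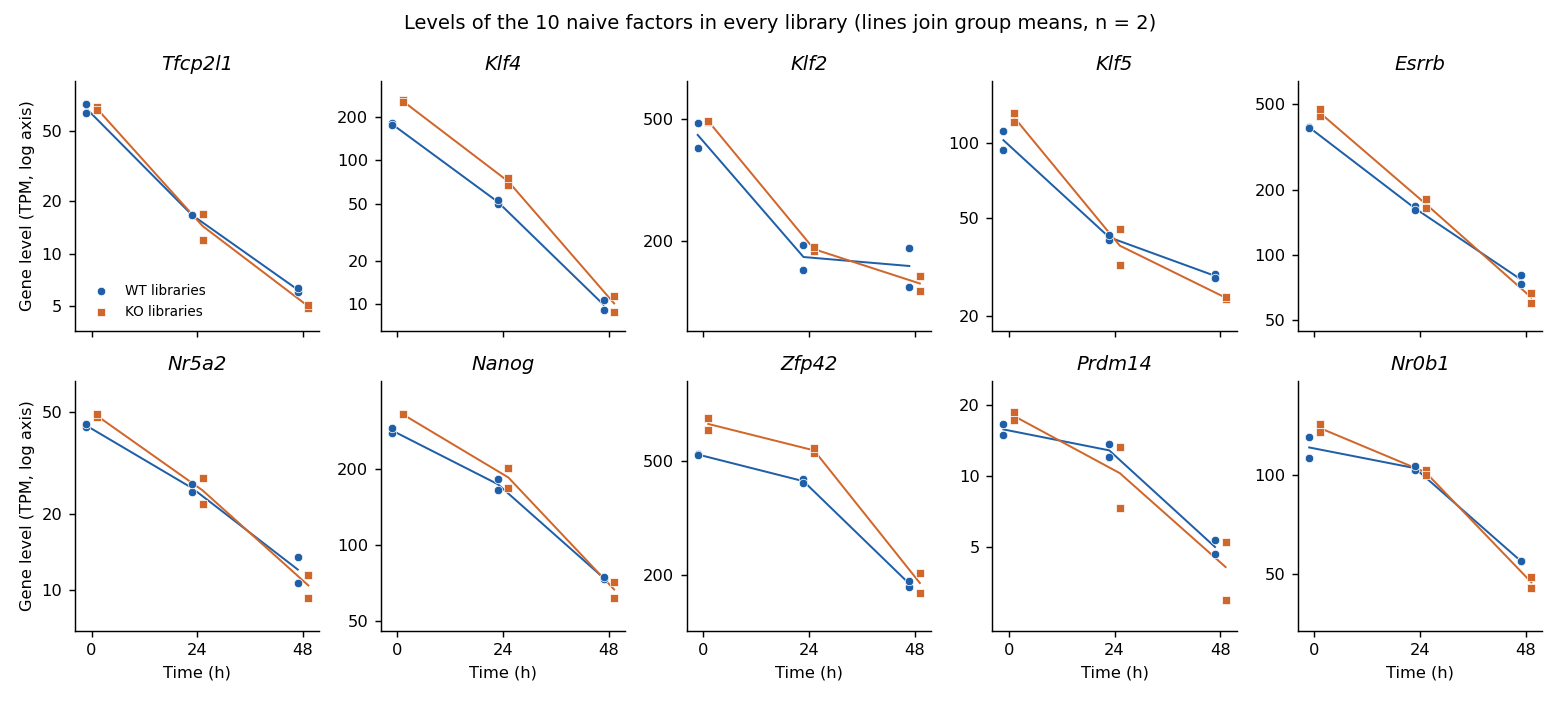
Level of each naive factor (TPM, log axis) against time (h) in WT (circles) and KO (squares). Each point is 1 library and lines join the means of 2 libraries. All 10 genes were lower at 48 h than at 0 h in both genotypes, with the steepest course in Klf4 and a flat second day in Klf2.

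In WT cells the dismantling of the network was well under way by 24 h: 8 of the 10 genes were lower than in ESCs (edgeR, adjusted p under 0.05), beside 7.47% of all genes tested. Between 24 h and 48 h 9 of the 10 fell, beside 4.86% of all genes, and from 0 h to 48 h all 10 fell, beside 12.5%. The median change of the 10 from 0 h to 48 h was -1.88 on the log2 scale, while the median of all genes tested was 0.02. In these bulk libraries, fewer cells expressing a gene and less RNA of it per cell cannot be told apart.

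Among the Kruppel-like factors, Klf4, a target of STAT3 in ESCs, lost the most. Klf4 read 182 and 176 TPM in the 2 WT ESC libraries, 49.9 and 52.9 at 24 h, and 9.04 and 10.7 at 48 h. No library overlapped with one from another time, and by 48 h Klf4 was 18-fold lower than in ESCs (log2 fold change -4.17 ± 0.10 SE, adjusted p = 2.79e-16). It was also the only member among the 10 whose fall in the second 24 h exceeded 5-fold, at 5.08-fold against 3.53-fold in the first.

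Klf2, the relative most closely tied to the ground state in which MEK is inhibited, behaved differently. Its WT libraries gave 486 and 404 TPM at 0 h, 194 and 161 at 24 h, and 141 and 189 at 48 h. Klf2 fell within the first day (log2 fold change -1.39 ± 0.15 SE, adjusted p = 0.000141), and the libraries of 24 h and 48 h overlapped. From 24 h to 48 h the change of Klf2 was -0.06 ± 0.15 (adjusted p = 0.903, 95% interval -0.35 to 0.22).

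Klf5, which unlike the others also acts in trophectoderm, stood between them. Klf5 was at 93.9 and 112 TPM in WT ESCs, 40.7 and 42.4 at 24 h, and 29.5 and 28.4 at 48 h. It lost 2.58-fold on the first day (adjusted p = 9.98e-08) and 1.40-fold on the second (-0.49 ± 0.11, adjusted p = 0.0106). The second step was not called when WT 24 h replicate 2 or either WT 48 h library was left out, with values of -0.45, -0.50 and -0.48, nor was it with transcript length offsets or with limma on either TPM scale.

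The orphan nuclear receptors Esrrb and Nr5a2 fell at different speeds, Esrrb being the faster of the pair. Esrrb, a central node of the network that shares many targets with Nanog, went from 390 and 386 TPM to 167 and 160 at 24 h and 73.2 and 80.3 at 48 h in WT. Its fall was nearly even over the days, at 2.56-fold and then 2.10-fold. Nr5a2, which can stand in for Oct4 in reprogramming, had 43.6 and 45.1 TPM at 0 h, 24.2 and 26.2 at 24 h, and 10.7 and 13.5 at 48 h. Each day brought it down by close to the same factor, 1.98-fold and 1.91-fold (adjusted p = 5.38e-06 and 2.96e-05).

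Of the nuclear receptors, Nr0b1 kept the highest share of its ESC level at 24 h in both genotypes. WT libraries held 113 and 131 TPM of Nr0b1 at 0 h, 104 and 106 at 24 h, and 54.7 and 54.9 at 48 h. The first-day change of -0.27 ± 0.09 lay just outside the threshold (adjusted p = 0.0502, 95% interval -0.44 to -0.09) and was called when WT 0 h replicate 1 (-0.35) or either KO 24 h library (-0.26 in both fits) was left out. DESeq2, its size factors in edgeR, and a filter of at least 10 counts in every library also called it (-0.27), with adjusted p between 0.0313 and 0.468 over all alternatives. On the second day Nr0b1 fell 1.88-fold (adjusted p = 1.61e-06), and 45.0% of its ESC level remained at 48 h.

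Nanog, the homeodomain factor that can sustain self-renewal without LIF when overexpressed, gave 278 and 292 TPM in WT ESCs, 166 and 184 at 24 h, and 73.5 and 75.2 at 48 h. It declined 1.70-fold and then 2.30-fold (adjusted p = 1.78e-06 and 1.88e-08), and the libraries of the 3 times did not overlap. Tfcp2l1, another STAT3 target, started at 62.9 and 70.9 TPM and dropped to 16.5 and 16.6 within a day, then to 6.08 and 6.37. With 4.09-fold it had the largest first-day fall of the 10 (-2.03 ± 0.13, adjusted p = 3.89e-08), and by 48 h it was 10.6-fold lower than in ESCs.

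In WT, Zfp42 and Prdm14 also had small first-day changes. Zfp42 was at 530 and 524 TPM in WT ESCs, 432 and 418 at 24 h and 182 and 191 at 48 h. Its first-day fall was small but larger than the spread between libraries (1.29-fold, -0.36 ± 0.07, adjusted p = 0.00151), although limma on either TPM scale did not call it (-0.31, highest adjusted p = 0.0545), and its second-day fall was 2.23-fold. Prdm14, the least abundant, gave 15.0 and 16.5 TPM, then 13.7 and 12, then 4.66 and 5.33. Its first-day change was -0.35 ± 0.25 (adjusted p = 0.419, 95% interval -0.84 to 0.14), and it fell 2.50-fold on the second day (adjusted p = 0.00268; -1.22 and no longer called without WT 48 h replicate 1, nor called by limma on either TPM scale).

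Expressed as the share of the ESC mean left in TPM, the WT genes formed 5 steps at 24 h, each separated from the next by ranges of library ratios that did not overlap. Tfcp2l1 came first at 24.8% ± 0.09 (SD, n = 2) and Klf4 next at 28.7% ± 1.17. Klf2 (39.8% ± 5.24), Klf5 (40.3% ± 1.19) and Esrrb (42.2% ± 1.18) could not be ranked among themselves, nor could Nr5a2 (56.9% ± 3.11) and Nanog (61.3% ± 4.41). The late group was Zfp42 (80.7% ± 1.80), Prdm14 (81.5% ± 7.64) and Nr0b1 (86.5% ± 1.45). Tfcp2l1 and Klf4 thus stood at the front of the order, and the reporter gene Zfp42 near its end. Whether the place of these genes is tied to LIF and STAT3 was not tested.

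At 48 h Klf4 had overtaken Tfcp2l1 in WT, with 5.51% ± 0.65 and 9.30% ± 0.31 of the ESC level left. Esrrb followed at 19.8% ± 1.28 and Nanog at 26.1% ± 0.42. From Nanog onwards every neighbour in the order overlapped: Nr5a2 at 27.2% ± 4.49, Klf5 at 28.1% ± 0.77, Prdm14 at 31.7% ± 3.02, Zfp42 at 35.4% ± 1.21, Klf2 at 37.2% ± 7.62 and Nr0b1 at 45.0% ± 0.10. Klf2 moved from the third place at 24 h to the ninth.

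**Figure D2:**
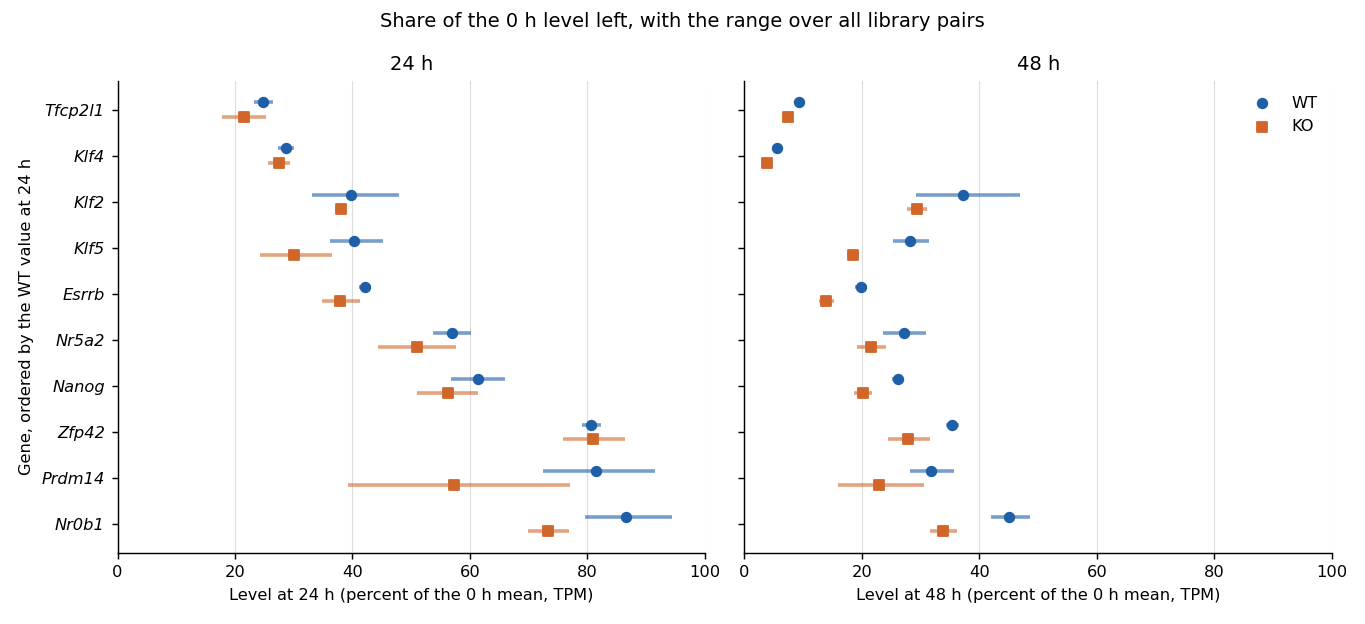
Share of the 0 h mean left at 24 h (left) and 48 h (right), in percent of TPM, for WT (circles) and KO (squares). Points are ratios of group means and bars span the 4 ratios between single libraries. Genes are in the WT order of 24 h, from Tfcp2l1 at 24.8% to Nr0b1 at 86.5%, and at 48 h Klf4 was lowest at 5.51% in WT and 3.88% in KO.

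The KO clone lost the same factors. Relative to its own ESCs, all 10 genes were lower at 24 h, beside 9.33% of all genes tested, 9 of 10 fell from 24 h to 48 h, beside 5.37%, and all 10 were lower at 48 h than at 0 h, beside 12.8%. The gene not called on the second day was again Klf2 (-0.29 ± 0.15, adjusted p = 0.284), although it was called without the filter on low counts (-0.30, adjusted p = 0.00669). The 95% interval of Klf2, formed by the normal approximation, was -0.58 to -0.0039 and just left out 0. In the edgeR F-test its unadjusted p was 0.0763, so this interval is too narrow. The median change from 0 h to 48 h was -2.19, with 0.01 for all genes.

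Klf4 in the KO clone went from 265 and 255 TPM to 67.7 and 74.8 at 24 h and 8.76 and 11.4 at 48 h, which is 25.2-fold in all. Tfcp2l1 read 67.8 and 65.9, then 12 and 16.7, then 4.91 and 5.10 TPM (14-fold). Esrrb was at 437 and 471, 164 and 180, and 59.9 and 66.6 TPM (7.30-fold). These were the 3 genes with the largest falls over 48 h in both genotypes, and none of their libraries overlapped between times. Without KO 24 h replicate 1 their first-day changes were -1.87 ± 0.11 for Klf4, -2.04 ± 0.11 for Tfcp2l1 and -1.45 ± 0.09 for Esrrb.

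Klf2 had 492 and 495 TPM in KO ESCs, 185 and 191 at 24 h and 137 and 153 at 48 h. Klf5 had 123 and 133, then 32.1 and 44.7, then 23.4 and 23.9 TPM. In Klf5 the lower 24 h value came from the library with few detected genes, and the first-day change of -1.78 ± 0.11 (adjusted p = 2.68e-09) was -1.58 ± 0.11 without it (adjusted p = 7.12e-12).

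Nanog gave 331 and 330 TPM in KO ESCs, 169 and 202 at 24 h and 62.0 and 71.8 at 48 h. Nr5a2 gave 47.9 and 49.1, 21.7 and 27.6, and 9.37 and 11.5 TPM, and Nr0b1 gave 135 and 144, 104 and 101, and 45.3 and 49.0 TPM. Nr0b1 passed the test on the first day in the KO (-0.48 ± 0.09, adjusted p = 0.000548), whereas it had just missed it in WT, but the difference between the genotypes in that step was itself not called (-0.22 ± 0.13, adjusted p = 0.877). Without KO 24 h replicate 1 the first-day changes in the KO were -0.54 ± 0.11 for Nr0b1 (adjusted p = 0.000519), -0.78 ± 0.09 for Nanog and -0.84 ± 0.13 for Nr5a2.

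Zfp42 stayed high in the KO at 24 h, with 534 and 555 TPM after 643 and 704 in ESCs, and was at 173 and 203 TPM at 48 h. Its first-day fall (-0.34 ± 0.07, adjusted p = 0.00208) was not called without KO 0 h replicate 2 (-0.28) or by limma on either TPM scale, and was -0.35 ± 0.09 without KO 24 h replicate 1 (adjusted p = 0.00575). Prdm14 gave 18.7 and 17.2 TPM in KO ESCs, 7.32 and 13.2 at 24 h and 2.98 and 5.24 at 48 h, the widest spread of any member. Its first-day fall in the KO (-0.85 ± 0.25, adjusted p = 0.0237) rested on the library with few detected genes: without KO 24 h replicate 1 it was -0.51 ± 0.24 (adjusted p = 0.181), and without either KO 0 h library it was not called either, at -0.79 and -0.91. Its second-day fall (-1.24 ± 0.26, adjusted p = 0.00402) was not called without KO 48 h replicate 1 (-0.90).

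In percent of the KO ESC mean, Tfcp2l1 (21.4% ± 4.94) was lowest at 24 h, followed by Klf4 (27.4% ± 1.91), Klf5 (30.1% ± 6.97), Esrrb (37.9% ± 2.49) and Klf2 (38.1% ± 0.90). Nr5a2 stood at 50.9% ± 8.57, Nanog at 56.2% ± 7.14 and Prdm14 at 57.3% ± 23.2, with Nr0b1 (73.3% ± 1.72) and Zfp42 (80.9% ± 2.19) last. Here only 2 gaps between neighbours were free of overlap, those between Tfcp2l1 and Klf4 and between Klf2 and Nr5a2. Tfcp2l1 did not stand apart from all genes behind it, as its range (17.7% to 25.3%) overlapped that of Klf5 (24.2% to 36.5%). At 48 h the KO order was led by Klf4 (3.88% ± 0.71), Tfcp2l1 (7.49% ± 0.20) and Esrrb (13.9% ± 1.04), each apart from the next, and ended with Nr0b1 (33.8% ± 1.90). The small SD of Tfcp2l1 includes 1.01 TPM of a short noncoding transcript in KO 48 h replicate 1. Its coding transcript alone was at 3.90 and 5.10 TPM in the libraries of that group.

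Taken from KO 24 h replicate 2 alone, the shares at 24 h were 24.9% for Tfcp2l1, 28.8% for Klf4, 35.0% for Klf5, 38.7% for Klf2 and 39.6% for Esrrb. Nr5a2 stood at 57.0%, Nanog at 61.2%, Nr0b1 at 72.1%, Prdm14 at 73.7% and Zfp42 at 82.4%. Against both KO ESC libraries, only Klf2 with Esrrb and Nr0b1 with Prdm14 then overlapped as neighbours. Klf2 and Esrrb changed places, and Nr0b1 came before Prdm14.

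The speed of shutdown was compared within each gene as the log2 change of the first day minus that of the second, a value below 0 meaning a larger fall on the first day. In WT, 5 of the 10 genes differed between the days, beside 6.24% of all genes tested, and in the KO clone 6 did, beside 9.02%. Klf2 and Klf5 were front-loaded in both genotypes: in WT the difference was -1.32 ± 0.26 for Klf2 (adjusted p = 0.0155) and -0.88 ± 0.20 for Klf5 (adjusted p = 0.0113), and in the KO it was -1.14 ± 0.26 (adjusted p = 0.0238) and -1.16 ± 0.20 (adjusted p = 0.000915). Of its whole fall over 48 h on the log2 scale, Klf2 completed 95.6% in WT and 83.1% in the KO by 24 h, and Klf5 73.8% and 74.4%.

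Zfp42, Nr0b1 and Klf4 fell more on the second day in both genotypes. Zfp42 had the clearest delay, with a difference of 0.79 ± 0.12 in WT (adjusted p = 0.000485) and 1.11 ± 0.12 in the KO (adjusted p = 7.72e-06). If each day is read as a constant exponential decline, Zfp42 halved once in 65.8 h on the first day and once in 20.8 h on the second in WT, and in 70.1 h and 16.5 h in the KO. Nr0b1 differed by 0.64 ± 0.15 and 0.55 ± 0.15 (adjusted p = 0.0138 and 0.0281). Klf4 combined an early start with a faster second day: its halving time went from 13.2 h to 10.2 h in WT (0.52 ± 0.15, adjusted p = 0.0482) and from 12.8 h to 8.64 h in the KO (0.90 ± 0.15, adjusted p = 0.000631). Nanog leaned the same way, at 0.44 ± 0.14 in WT (adjusted p = 0.0765) and 0.52 ± 0.14 in the KO (adjusted p = 0.0258).

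Tfcp2l1 pointed towards the first day without passing the test, at -0.66 ± 0.21 in WT and -0.64 ± 0.22 in the KO (adjusted p = 0.0963 and 0.0852). Esrrb (-0.28 ± 0.12 and -0.09 ± 0.12) and Nr5a2 (-0.05 ± 0.20 and 0.28 ± 0.20) were not called in either genotype, and for Prdm14 the error was too large to place it (0.97 ± 0.43 and 0.39 ± 0.43). Several of these calls lay close to the threshold, and in the KO that of Klf2 was lost without any one of the 6 KO libraries (-1.19 to -1.05). The value of Klf4 in WT was not called without any one of 7 libraries (0.40 to 0.62), among them WT 24 h replicate 1 and replicate 2, and that of Klf2 was not called without WT 24 h replicate 2 (-1.07) or either KO 24 h library (-1.31 in both). Klf5 in WT was not called without either WT 24 h library, nor was Nr0b1, which also lost its call without WT 0 h replicate 1. Nanog and Tfcp2l1 in WT were called without either KO 24 h library. In the KO, Nr0b1 (0.44) and Klf2 (-1.15) were not called without KO 24 h replicate 1, while Klf5 (-0.77), Nanog (0.71), Klf4 (0.92) and Zfp42 (1.11) were. The difference of Tfcp2l1 in the KO was -0.25 ± 0.19 without that library (adjusted p = 0.671), and it was called without replicate 2 instead (-1.06 ± 0.20, adjusted p = 0.000388).

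**Figure D3:**
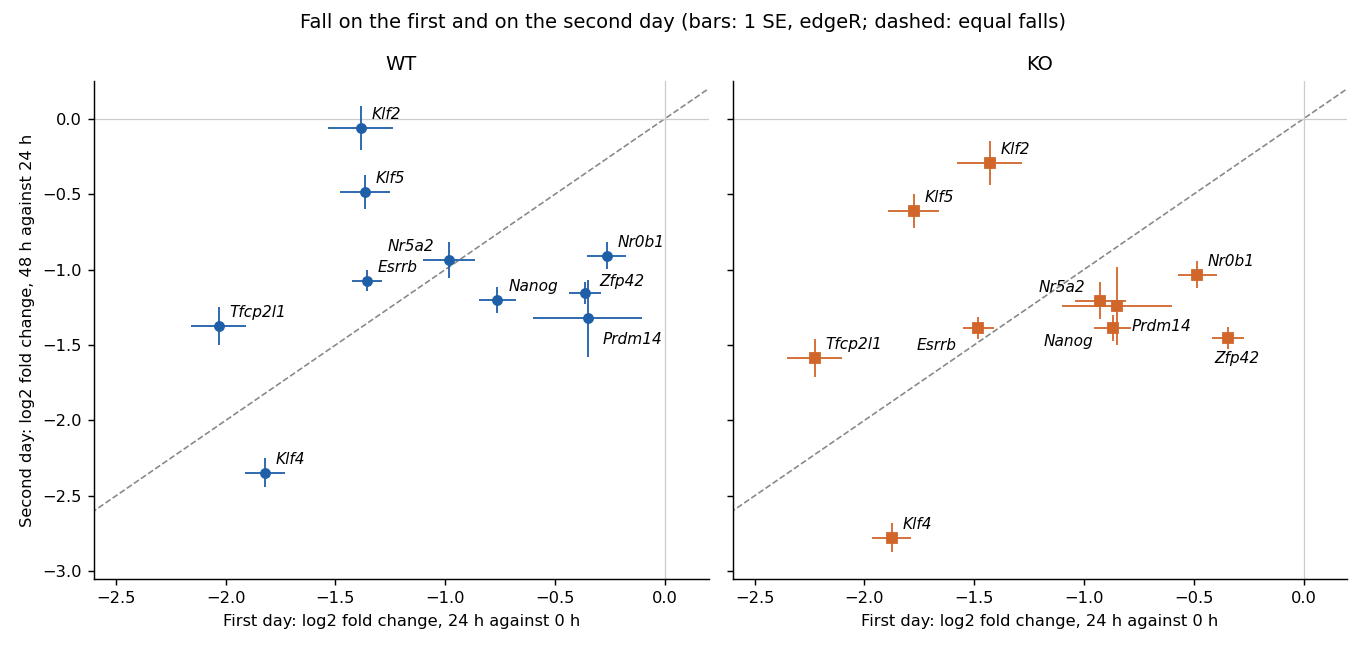
Log2 fold change on the second day (48 h against 24 h) against that on the first (24 h against 0 h) for each naive factor in WT (left) and KO (right), with bars of 1 SE from edgeR. On the dashed line the falls of both days are equal. Klf2 and Klf5 lie above it, with larger first-day falls, and Zfp42, Nr0b1 and Klf4 below it.

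Ratios within a library, which do not depend on its scaling, show the same sequence. The TPM of Zfp42 was 2.91 and 2.98 times that of Klf4 in WT ESCs, 8.65 and 7.91 times at 24 h, and 20.1 and 17.9 times at 48 h. In the KO the ratios were 2.43 and 2.76, then 7.88 and 7.42, then 19.7 and 17.8. Zfp42 over Klf2, by contrast, rose and came back: it was 1.09 and 1.299 in WT ESCs, 2.23 and 2.61 at 24 h, and 1.29 and 1.01 at 48 h, and in the KO it was 1.31 and 1.42, 2.89 and 2.91, and 1.26 and 1.33.

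Between the genotypes, 2 of the 10 genes differed in ESCs, and both were higher in the KO clone, beside 0.275% of all genes tested that were higher. Klf4 was 1.39-fold higher (log2 fold change 0.47 ± 0.09 SE, adjusted p = 0.00583), the KO libraries of 265 and 255 TPM lying above the WT libraries of 182 and 176. Zfp42 was 1.24-fold higher (0.31 ± 0.07, adjusted p = 0.0359), with 643 and 704 against 530 and 524 TPM. Most other members also had the higher TPM in both KO libraries without being called, among them Esrrb at 0.17 ± 0.07 (adjusted p = 0.361) and Klf5 at 0.27 ± 0.11 (adjusted p = 0.395). Nr5a2 had the higher TPM too, but its change fitted to counts was -0.006 ± 0.115. Both calls depended on single libraries: Klf4 was not called without WT 0 h replicate 2 (0.44) or KO 0 h replicate 1 (0.46), and Zfp42 not without any one of the 4 libraries compared (0.25 to 0.38) or without WT 24 h replicate 1 (0.32). With transcript lengths as offsets, or with limma on TPM, neither gene was called (0.51 to 0.54 for Klf4, 0.32 to 0.35 for Zfp42).

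At 24 h the same 2 genes were higher in the KO, beside 0.448% of all genes. Klf4 was 1.34-fold higher (0.42 ± 0.09, adjusted p = 0.0172), at 67.7 and 74.8 against 49.9 and 52.9 TPM, and Zfp42 was 1.26-fold higher (0.33 ± 0.07, adjusted p = 0.0219), at 534 and 555 against 432 and 418. Without KO 24 h replicate 1 both remained called, at 0.43 ± 0.10 and 0.33 ± 0.09 (adjusted p = 0.0233 and 0.0487). Without WT 24 h replicate 1 or replicate 2 neither was (0.38 and 0.47 for Klf4, 0.35 and 0.32 for Zfp42). The other 8 lay between -0.35 and 0.06, and the lower end was Prdm14, for which the value without KO 24 h replicate 1 was -0.01 ± 0.23. Without KO 24 h replicate 2, which leaves the library with few detected genes alone in its group, Klf5 (-0.37), Tfcp2l1 (-0.45) and Prdm14 (-0.80) were called lower in the KO as well.

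At 48 h none of the 10 was called between the genotypes (edgeR, adjusted p under 0.05), beside 0.671% of all genes in either direction. Without adjustment 3 had a p under 0.05, beside 1349 of all 17424 genes, and DESeq2 called 2, Esrrb and Tfcp2l1. Of the 10 values 9 were below 0, with a median of -0.20 where the median of all genes was 0. The 3 with an unadjusted p under 0.05 were Tfcp2l1 at -0.44 ± 0.13 (adjusted p = 0.220), Esrrb at -0.27 ± 0.07 (adjusted p = 0.101) and Klf5 at -0.27 ± 0.11 (adjusted p = 0.557), and Prdm14 was at -0.27 ± 0.26 (adjusted p = 0.971). The libraries of Tfcp2l1 (4.91 and 5.10 in the KO against 6.08 and 6.37 TPM in WT), Esrrb (59.9 and 66.6 against 73.2 and 80.3) and Klf5 (23.4 and 23.9 against 29.5 and 28.4) did not overlap. Esrrb (-0.27) and Tfcp2l1 (-0.45) were called when either KO 24 h library was left out of the fit, and Tfcp2l1 (-0.63) also without KO 48 h replicate 2. Klf4, the member with the largest excess in the KO earlier, was level with WT (-0.01 ± 0.10, 95% interval -0.20 to 0.18), as was Zfp42 (0.04 ± 0.07, 95% interval -0.11 to 0.18).

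**Figure D4:**
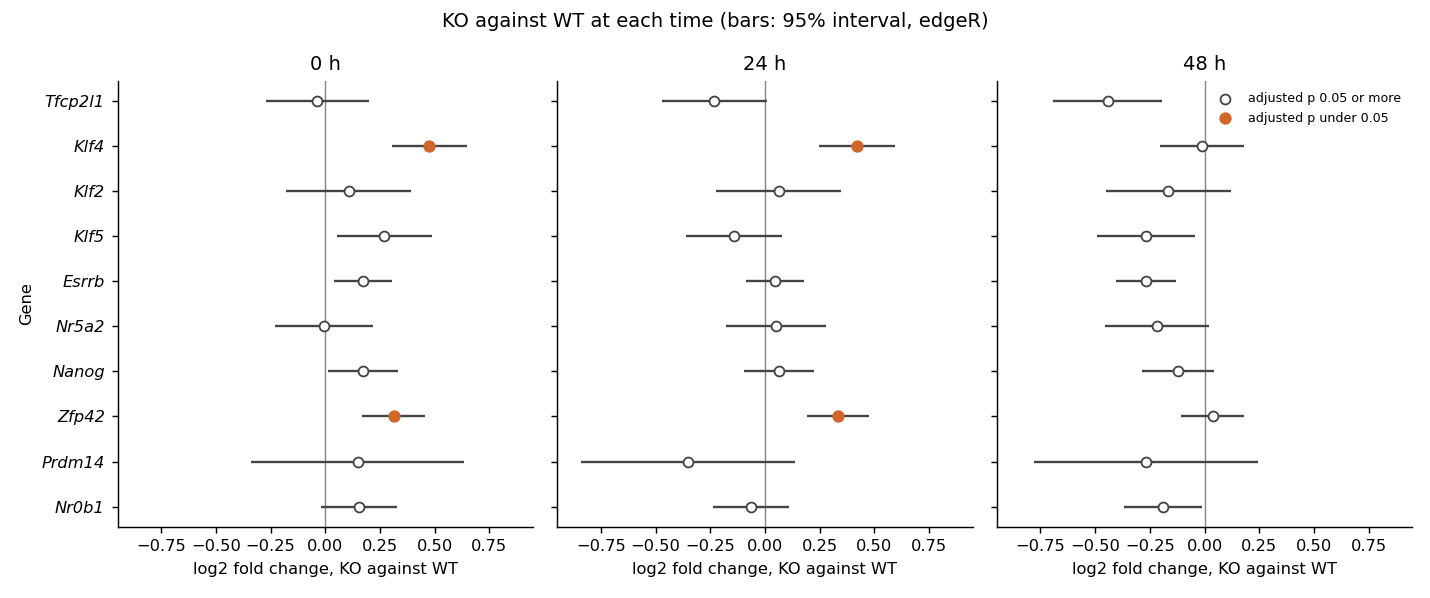
Log2 fold change of KO against WT for each naive factor at 0 h, 24 h and 48 h, with 95% intervals (edgeR, normal approximation, somewhat too narrow). Filled points passed an adjusted p of 0.05: Klf4 and Zfp42 at 0 h and at 24 h, and no gene at 48 h, where 9 of 10 values were below 0.

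Whether the course itself differed between the genotypes was tested with interaction terms, in which the change over time in WT was subtracted from that in the KO. None of the 10 was called for 24 h against 0 h, beside 0.0115% of all genes in either direction, none for 48 h against 24 h, beside 0.0230%, and none for 48 h against 0 h, beside 0.0402%. At an unadjusted p under 0.05 there were 1, 3 and 7 members, beside 1029, 894 and 1002 of all 17424 genes, and DESeq2 called 0, 0 and 1. Without KO 24 h replicate 2, Klf5 was called for 24 h against 0 h (-0.64). For 48 h against 0 h all 10 values were below 0, a larger fall in the KO, with a median of -0.37 beside -0.001 for all genes. They ran from -0.54 ± 0.16 for Klf5 (adjusted p = 0.449), -0.49 ± 0.13 for Klf4 (adjusted p = 0.311) and -0.44 ± 0.10 for Esrrb (adjusted p = 0.154) to -0.21 ± 0.17 for Nr5a2 (adjusted p = 1.0). Esrrb and Klf5 were called when either KO 24 h library was left out (-0.45 and -0.55 without replicate 1, -0.44 and -0.54 without replicate 2), although that group has no part in this contrast. The 0 h values that are higher in the KO enter these differences as the starting level.

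Isoforms were examined through the transcripts that Kallisto assigned to each gene. Klf2, Prdm14 and Nr0b1 had a single transcript in the tables, and in Klf4, Klf5 and Nanog 1 transcript held between 90.5% and 100% of the gene's TPM in every library. Between ESCs and 48 h, a change in isoform usage was called in none of the 7 members with several transcripts in WT, beside 0.148% of 11489 genes tested (diffSpliceDGE, adjusted p under 0.05), and in none in the KO, beside 0.00%. The unadjusted gene-level p was under 0.05 for 0 members in WT and for 1 in the KO, Esrrb. In Tfcp2l1 the short noncoding Tfcp2l1-202 held 20.6% of TPM in KO 48 h replicate 1 and 0% in the other library of that group. That share rested on 8.23 estimated counts, beside 981 of the much longer Tfcp2l1-201 in the same library.

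Esrrb was made up of Esrrb-203, with 69.7% to 84.2% of the gene's TPM, and Esrrb-206, with 14.2% to 25.3%. Esrrb-203 spans chr12:86421644-86521625 on the plus strand, and Esrrb-206 starts downstream, at position 86470117. Esrrb-204, which begins at a start far upstream, at position 86361117, held at most 3.31%. The window with the STAT match precedes that upstream start, and the one before the start of Esrrb-203 had none.

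Nr5a2 was the only member with a pair of transcripts of similar level. Nr5a2-201, which starts at position 136960448 on the minus strand of chr1, held 44.2% and 49.0% in WT ESCs and 53.3% and 37.4% at 48 h. Nr5a2-205, which starts at position 136953630, held 48.9% and 44.7%, and then 43.4% and 54.6%. In the KO the shares of Nr5a2-201 were 40.1% and 39.1% in ESCs and 45.4% and 43.4% at 48 h. Both transcripts, whose starts follow the promoter sequences shown above, were thus assigned reads before and after the fall. In WT the shares of the times overlapped, and in the KO those of Nr5a2-201 were higher at 48 h in both libraries, with no call for the gene (unadjusted p = 0.866).

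Zfp42-201 held 84.5% to 94.1% of Zfp42 and the other 2 transcripts, which carry a coding sequence of the same length of 864 bases, the rest. The study's RT-qPCR primers for Zfp42, matched here to GENCODE M21 transcripts, matched only this leading form as annotated. They are shown because the annotated starts of the other 2 transcripts, at positions 43306950 and 43306936 on the minus strand, lie within the forward primer site and downstream of it.
Zfp42 forward, chr8:43306939-43306960: ctcctagccgcctagatttcca
Zfp42 reverse, chr8:43304534-43304556: cgtgtcccagctcttagtccatt
The primers for Esrrb matched 5 of its 6 transcripts (96.6% to 100% of its TPM), those for Klf4 2 of 3 (96.5% to 100%), and those for Nanog all 3. The processed pseudogene Zfp42-ps1 was at 1.76 to 14.2 TPM with at most 98.9 estimated counts, beside the 6064 to 22519 counts of Zfp42. These are counts after Kallisto had split shared reads, so they do not bound how many reads fit both genes. Nanog-ps1 and Nanog-ps2 were at 0 in every library.

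**Figure D5:**
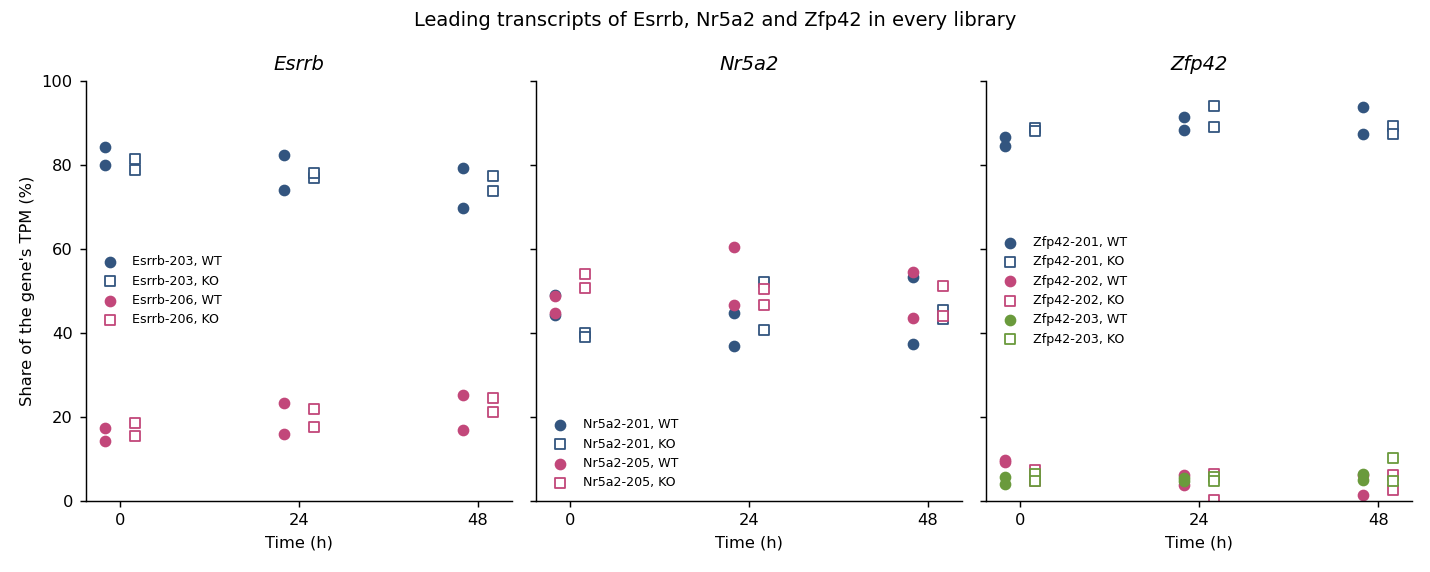
Share of the gene's TPM (%) held by the leading transcripts of Esrrb, Nr5a2 and Zfp42 against time (h). Each point is 1 library, WT as filled circles and KO as open squares. Esrrb-203 and Zfp42-201 led in every library, while Nr5a2-201 and Nr5a2-205 overlapped at 36.8% to 60.5%.

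Over 48 h most other genes of the naive state listed here fell as the 10 factors did. Of a list of 18, from Tbx3 and Gbx2 to the Dppa genes, 14 fell and none rose from 0 h to 48 h in WT (median -1.15), and 13 fell in the KO (median -1.22), beside 12.5% and 12.8% of all genes tested that fell. On the first day in WT 9 of the 18 fell, 1 rose and 8 were not called, beside 7.47% of all genes that fell. Their median change on that day was -0.34, against -1.17 for the 10 factors. Among the called genes, Tbx3, a T-box factor (139 to 16 TPM in WT, -2.98 ± 0.15), and Tcl1, a co-activator of Akt (179 to 23.6 TPM, -2.98 ± 0.12), fell most. The adhesion molecule Jam2 (-2.13 ± 0.09) and the secreted Spp1 (-2.02 ± 0.10) came next. In WT, Fgf4, Dppa3, Dppa4 and Pramel7 (-2.31 ± 1.53) were not called, names given after their values were seen.

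Genes of LIF signalling fell as well. Of 8 such genes, 7 were lower at 48 h in WT (median -1.24) and 7 in the KO (median -1.15), against the same 12.5% and 12.8% of all genes. Whether this bears on the falls of Klf4 and Tfcp2l1 was not tested. Socs3, the feedback inhibitor induced by STAT3, went from 88.5 to 7.10 and 2.14 TPM in WT and from 112 to 7.30 and 1.02 TPM in the KO, a larger fall over 48 h than that of any of the 10 factors. Stat3 itself (-1.93 ± 0.10), Pim1 (-1.59 ± 0.13) and Pim3 (-2.38 ± 0.10) were lower too, and Lif was not called (0.22 ± 0.40).

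General pluripotency genes were split, with 3 of 10 higher and 5 lower at 48 h in either genotype (median -0.21 in WT and -0.05 in the KO), where 11.1% of all genes were higher and 12.5% lower in WT, and 12.1% and 12.8% in the KO. Utf1, a chromatin factor (0.97 ± 0.09), and the RNA-binding protein Lin28a (0.95 ± 0.07) rose in WT, Zfp281 did as well, and Tdgf1 (-0.63 ± 0.07) and Gdf3 (-0.56 ± 0.09) fell with smaller changes than any of the 10 factors. Genes of the formative and primed state rose where the naive factors fell, 11 of 12 in each genotype (median 2.53 in WT and 3.23 in the KO), beside 11.1% and 12.1% of all genes that rose, with Fgf5 at 6.70 ± 0.47, Pou3f1 at 5.64 ± 0.18, Lef1 at 3.81 ± 0.22 and Dnmt3b at 3.46 ± 0.07 in WT. In KO ESCs 5 of these 12 were lower than in WT, beside 0.987% of all genes, namely Otx2, Fgf15, Dnmt3a, Lef1 and Nodal. Of the 10 factors only Klf4 and Zfp42 were called higher there, and those calls depended on single libraries. Of the 18 other naive genes 0 were called higher and 0 lower, beside 0.275% and 0.987% of all genes.

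Of 12 regulators of the exit from the naive state, 4 were higher and 5 lower in WT at 48 h (median -0.04), and 4 and 4 in the KO (median -0.18), against the shares of all genes just given. Tfe3, which holds cells in the naive state while it is nuclear, rose (1.08 ± 0.10) together with the repressor Foxd3 (1.02 ± 0.17), and so did Tcf7l1 and Mbd3. Etv4 (-1.32 ± 0.16) and Spry4 (-1.06 ± 0.09), targets of ERK signalling, fell, while 2 further ERK targets of the list, Etv5 (-0.01 ± 0.07, adjusted p = 0.975) and Dusp6 (0.10 ± 0.17, adjusted p = 0.743), named after their values were seen, were not called.

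The genes most like the mean course of the 10 factors, by Pearson correlation of log2 CPM over the 12 libraries among 9607 genes with a mean log2 CPM of at least 3, were Tbx3 and Spp1 (r = 0.997 each), Asns, an enzyme of asparagine synthesis (0.997), the Wnt antagonist Sfrp1 (0.996) and the acetyltransferase Kat6b (0.995). In WT, Asns went from 334 to 165 and 76.1 TPM, Sfrp1 from 71.3 to 32.1 and 13.2 TPM, and Kat6b from 104 to 62.7 and 34.6 TPM. The points are groups of 3 times and 2 genotypes that share their libraries, so these correlations describe a common time course. Among the members themselves r ran from 0.728 for Klf2 and Zfp42, the front-loaded and the delayed gene, to 0.995 for Klf4 and Nanog.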

How the data were processed

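Polyadenylated RNA was sequenced as stranded paired-end libraries from 12 samples, 2 in each of 6 groups of genotype and time. Per the labels, the authors used Trimmomatic 0.33 for trimming and Kallisto 0.43.1, with mm10 (GRCm38), for abundances, and they deposited 1 table per library with estimated counts and TPM per transcript. The strand setting and the transcript set of the quantification are not given in the sources used here. Transcripts were assigned to genes through GENCODE M21, and the 1690 of 115270 transcripts without a match, with 0.659% to 0.709% of the counts, were left out.

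Counts were summed per gene, rounded, filtered with filterByExpr and scaled by TMM. Contrasts of the 6 groups were tested with quasi-likelihood F-tests in edgeR 4.0.16 (R 4.3.3) across all 17424 genes, with Benjamini-Hochberg adjustment and a threshold of 0.05. Isoform usage was tested with diffSpliceDGE. Standard errors were taken from the fit, and 95% intervals were formed from them by the normal approximation. These intervals leave out the limited degrees of freedom of the F-tests. They are therefore somewhat too narrow and can leave out 0 where the unadjusted p is above 0.05. The scripts were tested on simulated data. Alternatives were DESeq2 1.42.0, its size factors, other filters, a replicate block, transcript length offsets, limma 3.58.1 on log2(TPM + 1) and log2(TPM + 0.1), protein-coding transcripts alone, the groups compared alone, and leaving out each library.

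The genes and all lists were chosen with earlier results of these data known. By a rule, all 10 factors, Cidea, up to 4 called genes of each list with the largest WT change from 0 h to 48 h, and the 5 genes with the most similar course are named, and others were named after their values were seen. Nothing in the labels says that the 2 libraries of a group came from separate cultures. The study's legends call them independent samples and biological replicates. The p-values measure the spread between these libraries. An exact permutation test of 2 against 2 cannot go below p = 0.333, so none was used. Promoter windows were cut to the 250 bases before the RefSeq start, without the bases after it that had been planned. A window can still reach past a GENCODE start, as that of Klf2 did.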

Additional observations from a re-analysis of the deposited data

How the results depend on the processing

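From 0 h to 48 h all 10 factors stayed lower in both genotypes under every alternative run, and no called value changed sign (an uncalled value that changed sign was counted as unchanged). The calls between genotypes, where 2 factors were called at 0 h and at 24 h and 0 at 48 h, were less stable. At 0 h the count was 0 with transcript length offsets, 0 with limma on either TPM scale, 1 with protein-coding transcripts alone, and 0 to 2 without single libraries. At 24 h it was 0 with length offsets, 0 with limma on either scale, 0 with the compared groups alone, and 0 to 5 without single libraries. At 48 h it was 2 with DESeq2, 1 without a filter, 1 with at least 10 counts in every library, and 0 to 2 without single libraries. The interactions gave 0 to 1 without single libraries for 24 h against 0 h. For 48 h against 0 h they gave 1 with DESeq2, 2 without a filter and 0 to 2 without single libraries. The difference in pace was called for 2 factors in WT with length offsets and 1 with limma on either scale, against 5, and for 1 in the KO with limma on either scale, against 6, with 1 to 6 and 3 to 6 without single libraries. The median share left at 24 h in WT was 49.5% in TPM and 44.8% in TMM-scaled CPM. The cause of these shifts was not tested.

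The replicate numbers did not pair the libraries, since the deviations of same-numbered libraries correlated at -0.0486 to 0.0508. With the replicate number as a block, 8, 9 and 10 factors were called in WT and 10, 9 and 10 in the KO over time, 2, 2 and 0 between genotypes, 0 in each interaction, and 7 and 6 for the pace in WT and the KO. The lowest count of a factor was 196, in Prdm14. The median share left at 24 h in the KO was 44.5%, and 48.3% without KO 24 h replicate 1, an alternative chosen after seeing the data. With 2 libraries a group, changes the size of the differences between genotypes passed or missed the threshold with single libraries.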

Other observations

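Relatives of the 10 factors did not move as a group. Of 25 paralogs 23 passed the filter on low counts (Nr5a1 and Nr0b2 did not), and from 0 h to 48 h 4 rose and 8 fell in WT, with a median of -0.11, while 3 rose and 9 fell in the KO, with a median of -0.12. Of all genes tested 11.1% rose and 12.5% fell in WT, and 12.1% and 12.8% in the KO. Klf3, which shares the Klf DNA-binding domain, fell in WT (-1.33 ± 0.09, 121 to 51.0 TPM), as did Klf8 (-1.31 ± 0.12). The grainyhead-like genes, relatives of Tfcp2l1, went in opposite directions: Grhl2, an epithelial regulator that acts at enhancers of the formative state, rose (2.47 ± 0.11, 6.93 to 41.6 TPM in WT), and Grhl3 fell (-1.18 ± 0.21). In KO ESCs Grhl2 was lower than in WT (-1.23 ± 0.11).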
